A study of Mus musculus with 30 samples.

Results

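Microglia are the resident macrophages of the brain and retina. Slc2a5 encodes GLUT5, a fructose transporter that in brain is known mainly from microglia, and its signal was lower in Per3-/- mice than in wild-type (WT) mice in both tissues examined here. The microglia genes described were Cx3cr1, P2ry12, Aif1, Csf1r, Tmem119, Itgam, Trem2, Tyrobp, C1qa and C1qb, 10 of 28146 gene names on the array. They were chosen by name, but with earlier results of these data known. They were measured by 16 of the 41174 non-control probes of the array, which were all probes that carry those 10 gene names in the files of the hypothalamus arrays. The same probes were followed in the eye by their probe names.

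The mice were adult males, either Per3-/-, lacking the clock gene Per3, or WT littermates, all on a C57Bl/6J background. All had been through 17 cycles of 3.5 h light and 3.5 h dark and were killed during the second hour of the final light phase. RNA came from a block of hypothalamus cut around the optic chiasm (8 WT, 8 Per3-/-) and from the whole eye (7 WT, 7 Per3-/-), and each tissue of each mouse was hybridized to 1 array of 60-base probes with 1 dye. Both are mixtures of cells, so that fewer microglia and less RNA per microglial cell cannot be told apart in any result given here. The whole eye also holds cornea, lens, sclera and choroid.

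Several members are receptors that microglia use to sense neurons and other cells. CX3CR1 binds fractalkine, P2RY12 responds to nucleotides, and CSF1R binds the growth factors on which microglia depend for survival. TREM2 is a lipid-sensing receptor that signals through the adaptor TYROBP, AIF1 (IBA1) is an actin-binding protein used to stain microglia, ITGAM (CD11b) is an integrin chain of the complement receptor, TMEM119 is a membrane protein used to tell microglia from other macrophages, and C1qa and C1qb encode chains of C1q, the first component of the classical complement pathway. Cx3cr1, Aif1, Csf1r, Itgam, Trem2, Tyrobp and the C1q genes are also expressed by macrophages outside the brain.

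A value below is the log2 of the background-corrected spot signal minus the log2 of the 75th percentile of the same array, so 0 is a signal at that percentile and a difference of 1 is a doubling. Levels of different probes are not comparable. All 16 probes were well above background on all 16 hypothalamus arrays, and 15 were on all 14 eye arrays. The exception, the Cx3cr1 probe A_51_P350853, was well above background in 6 of 7 WT and 7 of 7 Per3-/- eyes. Of all probes, 67.9 to 80.7% were well above background on an array. The tissue labels were borne out by the retina, lens and cornea list, all 12 probes of which were higher in the eye (median log2 difference 12.44), and by the list of hypothalamic neuron genes, 9 of 11 probes of which were higher in the hypothalamus (median eye minus hypothalamus -3.48). In the knockout allele a cassette takes the place of exon 3 of Per3 and the intron after it. The Per3 probe starts at base 4401 of the transcript, outside that part, and so does not check the deletion. It differed by -0.51 in the hypothalamus (limma adjusted p = 0.067, with 7 of 8 Per3-/- values under the WT range), whereas its eye difference was -0.45 (adjusted p = 1), 4 of 7 being under it.

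The probes on which the results turn are printed below by the first 30 of their 60 bases as the array files give them, 5′ to 3′, with the mm9 position of the whole probe. The Cx3cr1 pair is shown because its probes differed between tissues, P2ry12 for its large tissue difference, C1qa and C1qb because they had the largest genotype differences in the eye, and Slc2a5 as the gene set against the members. No bases are marked by capitals.
Cx3cr1 A_51_P350853, chr9:119960610-119960669: ttcttccccagttgtgacatgaagagggac
Cx3cr1 A_52_P99810, chr9:119959018-119959077: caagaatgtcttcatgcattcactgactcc
P2ry12 A_51_P338878, chr3:59020598-59020657: tgcacattaagatggtagaggtttaaaagg
C1qa A_51_P181451, chr4:136452409-136452468: ccggccagctttctcagccattcggcagaa
C1qb A_51_P351860, chr4:136436578-136436637: attctggggactacggggctacacagaaag
Slc2a5 A_51_P514405, chr4:149517775-149517834: aggccatttgcgaagacacactgagcgtgg
The member genes lie on 7 chromosomes. C1qa and C1qb are on chromosome 4, as are Per3 and Slc2a5. The C1qa probe lies 13.9 Mb from the Per3 probe and the Slc2a5 probe 0.861 Mb from it. The exon or UTR in which each probe lies was not looked up, as no annotation of mm9 was used here.

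One hypothalamus sample stood apart from its group for the members. WT mouse 8 had the lowest WT signal for 13 of the 16 member probes, and its mean level of the 10 genes was -0.73, against -0.41 to -0.12 in the other 7 WT mice and -0.36 to -0.21 in the Per3-/- mice. In the same mouse the mean of the border macrophage list deviated from the WT mean by -0.49 and that of the other microglia genes by -0.31, whereas the neuron, astrocyte, oligodendrocyte and endothelium lists deviated by 0.03, -0.05, 0.04 and 0.05. Its red blood cell list was 0.44 above the WT mean. Its monocyte and neutrophil list deviated by -0.53, that of activated microglia by -0.27, that of ligands and partners by -0.2 and that of lymphocytes by 0.13. On the monocyte and neutrophil list WT mouse 4 deviated by 0.66. Results that rest on WT mouse 8 are given with and without it, apart from the fit with the mean member level as a term.

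**Figure D1:**
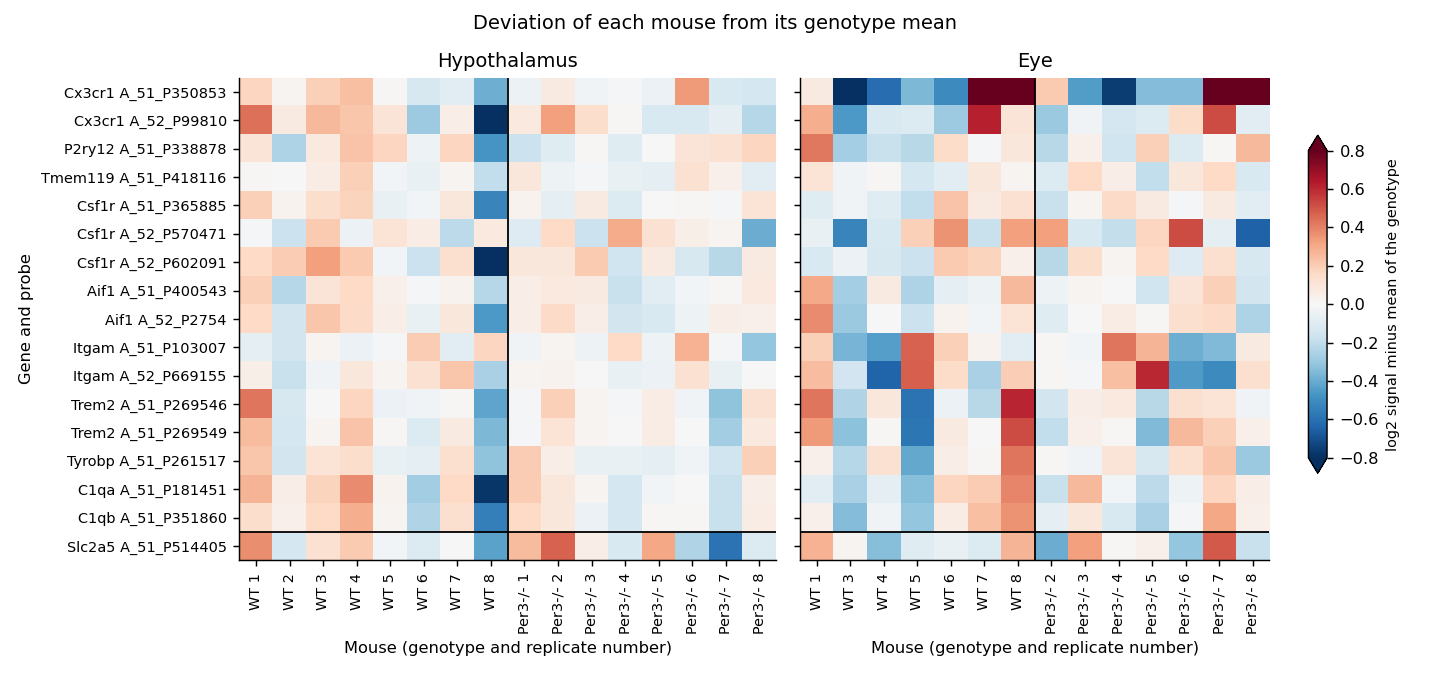
Each square is 1 mouse (x axis, genotype and replicate number) and 1 probe (y axis), coloured by the log2 signal minus the mean of that mouse's genotype and tissue, with colour limits at ±0.8. WT mouse 8 of the hypothalamus is below its group mean for nearly all member probes and for Slc2a5, which is the bottom row.

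The first comparison asked whether the microglia genes differed between genotypes. In the hypothalamus no member probe was called (0 of 16, limma, adjusted p under 0.05), beside 17 of all 41174 probes (0.0413%), and 0 of 16 had an unadjusted p under 0.05, beside 2.82% of all probes. The unpaired test of the study's methods, adjusted in the same way, also called 0 of 16. Differences of Per3-/- minus WT ran from -0.03 to 0.12 with a median of 0.04 (all probes, -0.01), and 13 of the 16 were positive. Without WT mouse 8, 7 of 16 were positive and the median was 0.00. The 95% intervals of the 16 differences lay between -0.27 and 0.42.

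Among the receptors, P2ry12 in the hypothalamus had a lowest, median and highest value of -0.91, -0.35 and -0.21 in WT mice and of -0.49, -0.32 and -0.15 in Per3-/- mice. The ranges overlapped, with 2 of 8 Per3-/- mice above every WT mouse, and the difference was 0.12 ± 0.09 (SE, n = 8 and 8, interval -0.08 to 0.32, limma adjusted p = 0.99). Csf1r was read by 3 probes, of which A_52_P570471 and A_52_P602091 differed by 0.02 and 0.12. The third, A_51_P365885, had values of 0.76, 1.35 and 1.48 in WT and 1.28, 1.40 and 1.50 in Per3-/- mice. The ranges overlapped apart from the low value of WT mouse 8, and the difference was 0.10 ± 0.09 (SE, limma adjusted p = 0.99). The Cx3cr1 probe A_52_P99810 ran from -1.58 over -0.68 to -0.33 in WT and from -0.96 over -0.76 to -0.40 in Per3-/- mice, with a difference of 0.04 ± 0.15 (SE, limma adjusted p = 0.99). All Per3-/- mice lay within the WT range.

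The Trem2 probe A_51_P269546 had values of 1.34, 1.74 and 2.19 in WT and 1.41, 1.74 and 1.92 in Per3-/- mice. Its adaptor Tyrobp had 1.11, 1.45 and 1.65 in WT and 1.29, 1.40 and 1.65 in Per3-/- mice. For both genes the Per3-/- range lay inside the WT range, and the differences were -0.03 ± 0.10 and 0.03 ± 0.08 (SE, limma adjusted p = 0.99 for each). Tmem119, the member with the narrowest interval, differed by 0.02 (interval -0.09 to 0.13), with values of 0.40, 0.60 and 0.79 in WT and 0.53, 0.59 and 0.74 in Per3-/- mice.

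C1qa, the member that followed the others most closely in the hypothalamus, had values of 0.08, 0.96 and 1.24 in WT and 0.72, 0.91 and 1.1 in Per3-/- mice, and C1qb had 0.11, 0.74 and 0.95 in WT and 0.52, 0.71 and 0.86 in Per3-/- mice. The Per3-/- mice lay within the WT range for both, with differences of 0.04 ± 0.13 and 0.04 ± 0.10 (SE, limma adjusted p = 0.99 for each). The Aif1 probes differed by 0.05 and 0.06 and the Itgam probes by -0.01 and 0.08, all at a limma adjusted p of 0.99.

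In the eye again 0 of 16 member probes were called by limma, beside 8 of all probes (0.0194%), and 0 had an unadjusted p under 0.05, beside 1.80% of all probes. The unpaired test of the methods called 0 as well. Differences ran from -0.12 to 0.24 with a median of 0.07 (all probes, 0.00) and 13 of 16 were positive, with intervals between -0.69 and 1.09. The widest interval was that of the Cx3cr1 probe A_51_P350853. Its 4 highest eyes, -3.66 and -3.49 in WT and -3.80 and -3.84 in Per3-/- mice, were the 4 eyes on slide 4, and all other eyes were between -6.11 and -4.48.

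C1qa and C1qb had the lowest p of the members in the eye. C1qa read 0.02, 0.28 and 0.75 in WT and 0.39, 0.58 and 0.86 in Per3-/- eyes, a difference of 0.24 ± 0.12 (SE, n = 7 and 7, interval -0.01 to 0.50, limma adjusted p = 1). C1qb read -0.73, -0.34 and -0.02 in WT and -0.41, -0.16 and 0.16 in Per3-/- eyes, a difference of 0.23 ± 0.12 (SE, interval -0.03 to 0.48, limma adjusted p = 1). The ranges overlapped, with 2 of 7 and 1 of 7 Per3-/- eyes above every WT eye. C1qc, the third chain of C1q and no member, differed by 0.21 ± 0.10 (SE, limma adjusted p = 1). With slide as a block 0 of 16 member probes were called by limma in the eye and 2 had an unadjusted p under 0.05. Within the 4 slides C1qa differed by 0.15, 0.52, 0.20 and 0.06. On slide 1, with 1 eye per genotype, this is a difference of single eyes.

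**Figure D2:**
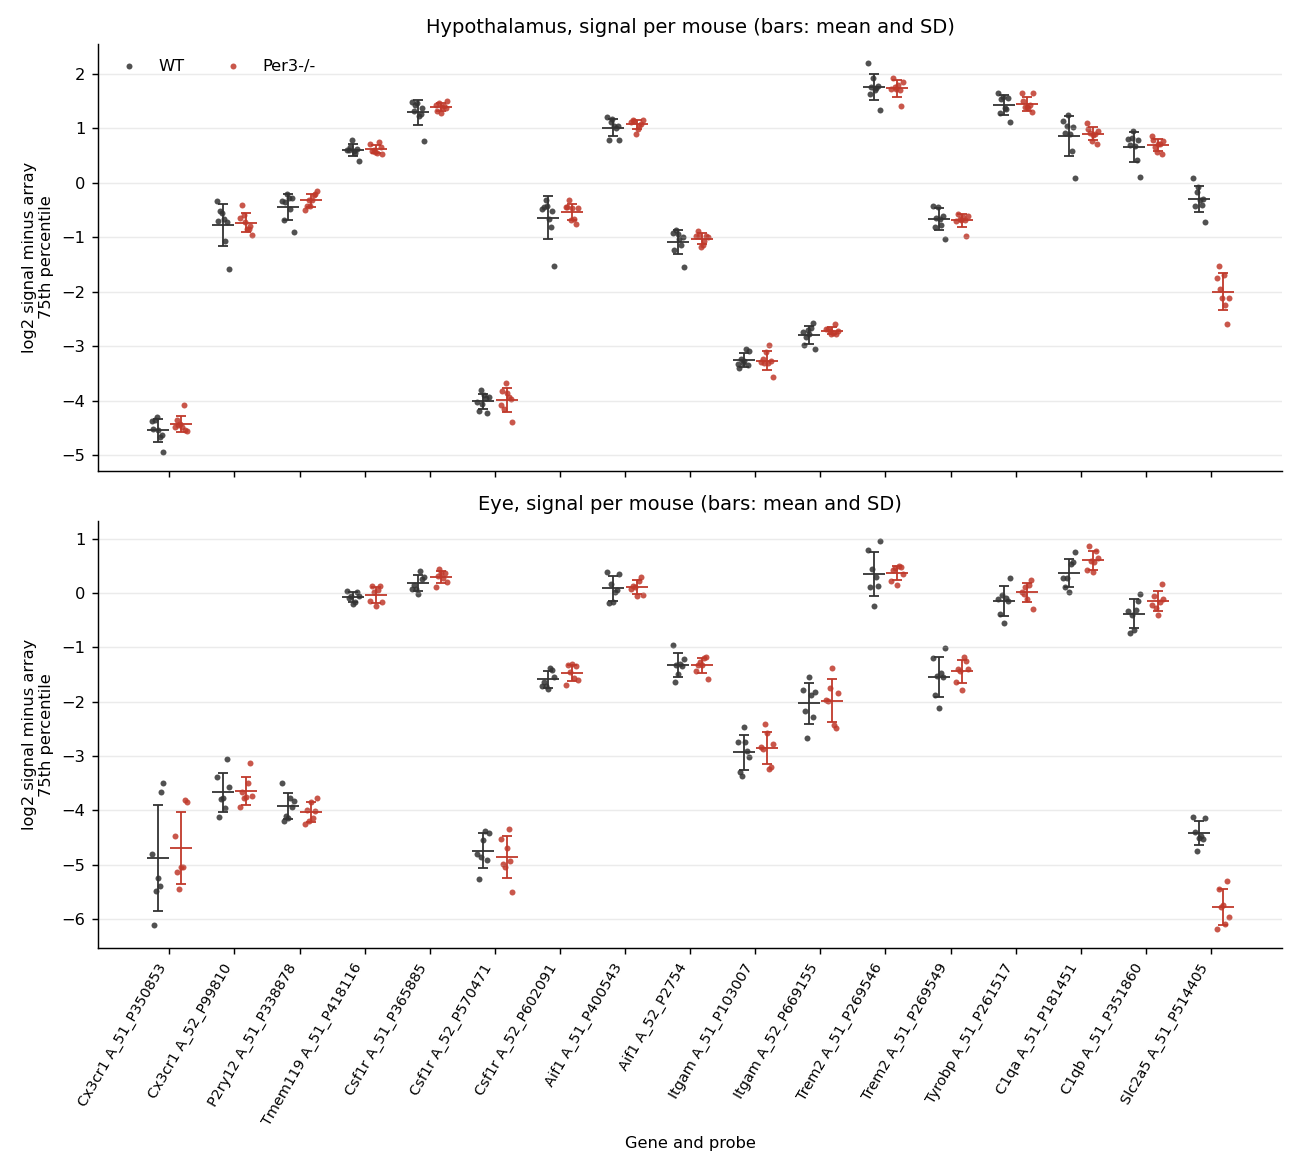
Signal of each mouse (points) for the 16 member probes and Slc2a5 (x axis), as log2 signal minus the array's 75th percentile (y axis), with mean and SD per genotype. WT and Per3-/- points overlap for every member probe in both tissues, and for Slc2a5 the groups are apart.

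**Figure D3:**
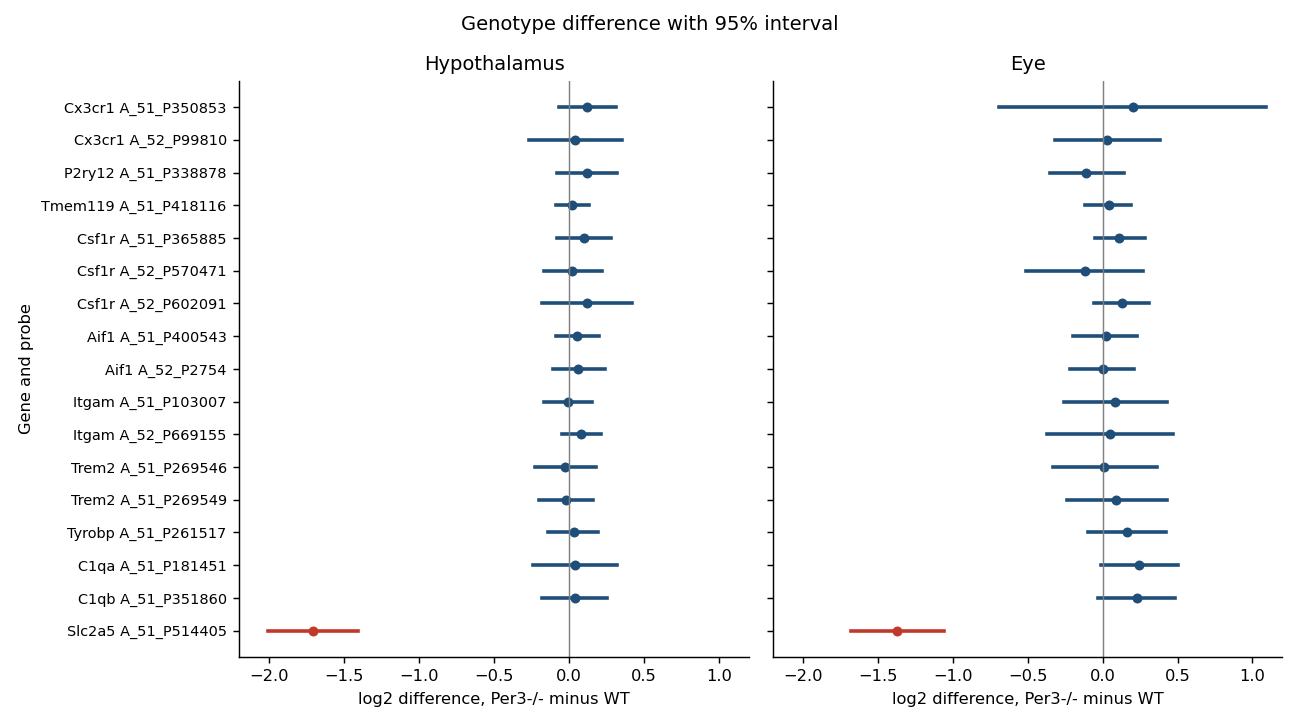
Difference of Per3-/- minus WT on the log2 scale (x axis) with its 95% interval for each member probe and for Slc2a5 (y axis). The 32 member differences lie between -0.12 and 0.24, and Slc2a5 lies at -1.71 (hypothalamus) and -1.37 (eye).

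The genotype difference of the members was also set against itself between tissues in a fit over all 30 arrays. Of the 16 probes 0 were called for a difference between eye and hypothalamus (2 of all probes, 0.00486%) and 0 had an unadjusted p under 0.05. The eye minus hypothalamus values ran from -0.23 (P2ry12) to 0.20 (C1qa).

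Other genes known for microglia or their signalling gave 0 called probes of 45 by limma in either tissue. In the hypothalamus 0 of 45 had an unadjusted p under 0.05, the median difference was 0.03, and 29 were positive, against 0.00 and 23 without WT mouse 8. In the eye 7 of 45 did, beside 1.8% of all probes, with a median of 0.09 and 36 positive (0.03 and 28 without WT mouse 3). Among these 7 were the dim Ptprc probes A_52_P341128 and A_52_P239834, well above background on 0 and 9 of 14 eye arrays. The lowest p there were those of an Fc receptor gene, Fcgr3 (0.37 by A_51_P328613 and 0.34 by A_52_P408757), and of Fcrls (0.24 by A_51_P172168), all at a limma adjusted p = 1. No probe of the ligands and partners of the members was called by limma among 13 in either tissue (medians 0.04 and 0.03). In the hypothalamus 0 and in the eye 2 had an unadjusted p under 0.05, beside 2.82% and 1.8% of all probes. In the hypothalamus 10 of 13 were positive, and 8 with a median of 0.00 without WT mouse 8. In the eye the median ran from -0.01 to 0.11 when 1 mouse was left out. Csf1 and Il34, the ligands of CSF1R, differed by -0.05 and 0.01 in the hypothalamus and by 0.03 and -0.04 in the eye, and the main probe of Cx3cl1 (fractalkine), A_51_P196925, by -0.05 and -0.04. C3, the complement component whose cleavage product ITGAM binds, differed by 0.21 in the hypothalamus (A_51_P110301, limma adjusted p = 0.99) and 0.45 in the eye (adjusted p = 1).

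Genes known to rise in activated microglia, among them class II antigen presentation genes and chemokines, gave 0 called probes of 28 in each tissue. Of these, 20 were well above background on every hypothalamus array and 26 on every eye array. In the hypothalamus 27 of 28 were positive with a median of 0.20, and 6 had an unadjusted p under 0.05 (2.82% of all probes). Lowest in p were the chemokine gene Ccl3 (0.56 ± 0.14, SE, limma adjusted p = 0.99), Cst7 (0.35) and Itgax (0.40). The median was 0.06 without Per3-/- mouse 1 and 0.14 without WT mouse 8, with 24 of 28 positive in each case. In the eye 27 of 28 were positive with a median of 0.24, and 6 had an unadjusted p under 0.05 (1.8% of all probes), with Cd74 (0.29), Axl (0.23) and Cd14 (0.26) lowest in p, all at an adjusted p of 1.

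Macrophages of brain borders and vessels express many of the members. Their list gave 0 called probes of 13 in each tissue. In the hypothalamus all 13 were positive with a median of 0.21, and 12 or 13 were positive with medians from 0.13 to 0.27 when any 1 mouse was left out. There 3 of 13 had an unadjusted p under 0.05, beside 2.82% of all probes. Folr2 (0.55), Pf4 (0.36) and Ms4a7 (0.61 by A_52_P59124) had the lowest p, all at an adjusted p of 0.99. In the eye 12 of 13 were positive with a median of 0.25, led by Pf4 (0.34, limma adjusted p = 1). Of the 13 eye differences 1 had an unadjusted p under 0.05, beside 1.8% of all probes. The mean level of the list ran over the probes no array of that tissue read near background from -4.02 to -3.23 in WT and from -3.49 to -2.99 in Per3-/- hypothalamus, and from -0.32 to 0.40 in WT and 0.00 to 0.67 in Per3-/- eyes. Its part in the member values was not tested.

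Red blood cell genes had a positive difference for 8 of 8 probes in both tissues, with medians of 0.30 (hypothalamus) and 0.26 (eye), 0 called by limma and 0 at an unadjusted p under 0.05. Leaving out 1 mouse moved these medians between 0.19 and 0.39 and between 0.10 (without Per3-/- mouse 2) and 0.42 (without Per3-/- mouse 5). Their mean level overlapped between genotypes (1.47 to 2.31 in WT and 1.41 to 2.92 in Per3-/- hypothalamus).

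Monocyte and neutrophil genes gave 9 of 13 positive in each tissue. Their median was 0.08 in the hypothalamus (0.00 without Per3-/- mouse 7, up to 0.14 without another mouse) and 0.24 in the eye (0.11 without WT mouse 3 or Per3-/- mouse 3, 0.39 without WT mouse 8). The lowest p was that of Ccr2, a chemokine receptor gene of monocytes, in the eye (0.70 by A_52_P580853, limma adjusted p = 1), where the probe was well above background on 5 of 14 arrays. Lymphocyte genes gave 9 of 12 positive in the hypothalamus (median 0.19, from 0.09 without Per3-/- mouse 1 to 0.25) and 10 of 12 in the eye (0.11, from 0.02 without WT mouse 3 to 0.20). Cd3d, a chain of the T cell receptor complex, differed by 0.48 in the hypothalamus (limma adjusted p = 0.99, well above background on 10 of 16 arrays) and the protease gene Gzma by 0.69 in the eye (limma adjusted p = 1, on 8 of 14).

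The oligodendrocyte list gave 14 of 17 negative probes in the eye and a median of -0.38, with 0 called by limma and 0 at an unadjusted p under 0.05. Its median was -0.06 without WT mouse 1, -0.11 without WT mouse 8 or Per3-/- mouse 2, and -0.69 without Per3-/- mouse 8. Ugt8a, Mbp and Cldn11, genes of myelin, had the lowest p (-0.71 by A_51_P506822, -0.75 by A_51_P349205 and -0.58, limma adjusted p = 1 for each). The Ugt8a probe was well above background in 9 of 14 eyes, and another Mbp probe, A_52_P604195, differed by 0.00. In the hypothalamus the list's median was -0.03. The astrocyte and endothelium lists had medians of -0.04 and 0.03 in the hypothalamus and -0.03 and 0.06 in the eye. Neuron genes had medians of -0.05 and -0.01, and in the hypothalamus the probes of Slc17a6, a glutamate transporter gene, differed by -0.18 and -0.14 (limma adjusted p = 0.99). No probe of these lists was called by limma in either tissue.

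The second comparison set Slc2a5 against the microglia genes. In the hypothalamus Slc2a5 read -0.72, -0.30 and 0.08 in WT mice and -2.59, -2.03 and -1.53 in Per3-/- mice. All 8 Per3-/- mice lay below every WT mouse, and the difference was -1.71 ± 0.14 (SE, interval -2.01 to -1.41, a 3.27-fold lower signal, limma adjusted p = 5.5e-05). None of the 16 member intervals in the hypothalamus reached below -0.27. In the eye Slc2a5 was dim. It read -4.75, -4.47 and -4.13 in WT and -6.18, -5.77 and -5.29 in Per3-/- eyes, where it was well above background in 4 of 7. The 7 Per3-/- eyes lay below every WT eye, with a difference of -1.37 ± 0.15 (SE, interval -1.68 to -1.06, limma adjusted p = 0.0018). That call was lost with quantile normalization (-1.35, limma adjusted p = 0.061). With normexp, another background correction that adds an offset of 50 to every signal, the difference was -0.17 (limma adjusted p = 0.82). An added offset narrows log2 differences of dim probes, and its part in this value was not tested. With normexp the median eye difference over all probes was 0.18.

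The signal of Slc2a5 minus that of a member in the same mouse was also compared mouse by mouse. In the hypothalamus all 8 Per3-/- mice lay below every WT mouse for 16 of 16 member probes. In the eye the 7 Per3-/- mice did so for 14 of 16 probes, and the other 2 were the Cx3cr1 probe A_51_P350853 (4 of 7) and the Itgam probe A_52_P669155 (6 of 7). Slc2a5 alone already separated the genotypes, and the member differences lay between -0.12 and 0.24, so these counts largely followed from Slc2a5 itself. They share 1 Slc2a5 probe and are not independent results.

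With the mean level of the member genes as a further term in the fit, the genotype difference of Slc2a5 in the hypothalamus was -1.77 ± 0.11 (SE, interval -2.01 to -1.53, limma adjusted p = 3e-06), against -1.71 without that term. In the eye it was -1.45 (interval -1.74 to -1.17, limma adjusted p = 0.0014), against -1.37. The mean level itself was -0.32 ± 0.20 (SD, 8 mice) in WT hypothalamus against -0.27 ± 0.05 (SD, 8 mice) in Per3-/- hypothalamus, with medians of -0.27 and -0.26. In the eye it was -1.36 ± 0.19 (SD, 7 mice) for WT against -1.28 ± 0.08 (SD, 7 mice) for Per3-/-, with medians of -1.31 and -1.27. As the level differed so little between genotypes, adding it could change the Slc2a5 difference only slightly, whatever its cause. The fit with this term was not repeated without WT mouse 8. Within the 4 slides of the hypothalamus Slc2a5 differed by -1.46, -1.91, -1.61 and -1.84, while the median member differed by 0.05, -0.12, 0.05 and 0.20. Within the slides of the eye the values were -2.05 (1 eye per genotype), -1.04, -1.43 and -1.29 for Slc2a5 and -0.14, 0.25, 0.15 and -0.06 for the members.

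Between mice of 1 genotype Slc2a5 was also related to each member probe, which gave 64 relations over both genotypes and tissues, each with an exact two-sided permutation p. Of these 55 were positive (median Pearson r 0.48). After Benjamini-Hochberg adjustment over the 64, 10 had an adjusted p under 0.05 by r and 7 by Spearman's rho, and all of these were in the WT hypothalamus. There the median r over the 16 probes was 0.89, with 14 positive, and 0.86 with slide means taken out. Leaving out the 2 mice farthest from the median of the member gave a median of 0.75. The share of all probes related to Slc2a5 this closely was not computed, so these counts do not set the members apart.

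Tyrobp gave r = 0.95 and rho = 0.98 with Slc2a5 in the 8 WT hypothalami (exact permutation p = 9.9e-05 and 0.0004, adjusted 0.0048 and 0.013), and r was 0.86 without the 2 farthest mice. The Trem2 probe A_51_P269546 gave r = 0.97 and rho = 0.95 (exact permutation p = 0.00017 and 0.0011, adjusted 0.0048 and 0.018, r = 0.89 without 2 mice). The Aif1 probe A_51_P400543 gave r = 0.91 and rho = 0.95 (exact permutation p = 0.0003 and 0.0011, adjusted 0.0048 and 0.018, r = 0.99 without 2 mice). P2ry12 gave r = 0.81 and rho = 0.71 (exact permutation p = 0.011 and 0.058, adjusted 0.064 and 0.25), and r was 0.35 without the 2 farthest mice. The 2 negative relations were those of the Itgam probe A_51_P103007 (r = -0.52) and the Csf1r probe A_52_P570471 (r = -0.05), while the other Itgam probe gave r = 0.59.

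The adjusted calls rested on WT mouse 8, which had both the lowest Slc2a5 and the lowest member level of the WT mice. Without it 15 of 16 relations in the WT hypothalamus were positive with a median r of 0.76, 9 had an unadjusted exact permutation p under 0.05, and 0 passed the adjustment (lowest adjusted p = 0.063). Without any other single WT mouse 5 to 12 relations had an adjusted p under 0.05, with the lowest count without WT mouse 3. In the Per3-/- hypothalamus the median r was 0.16 (range -0.67 to 0.81), 4 of 16 had an unadjusted exact permutation p under 0.05 and 0 an adjusted one. The median r was 0.48 there without Per3-/- mouse 6, and 2 of 16 passed the adjustment without Per3-/- mouse 8. With slide means taken out the median was 0.11. The WT eye gave a median of 0.34 with 16 of 16 positive and 0 adjusted calls, but with slide means taken out the median was 0.04 with 9 positive, and with quantile normalization 0.12 with 9 positive. The Per3-/- eye gave a median of 0.39 with 0 adjusted calls, 0.44 with slide means taken out and 0.13 without the 2 farthest mice. Whether the relation differed between genotypes was not tested, and the mean member level spread less in Per3-/- hypothalami (SD 0.05) than in WT (SD 0.20).

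**Figure D4:**
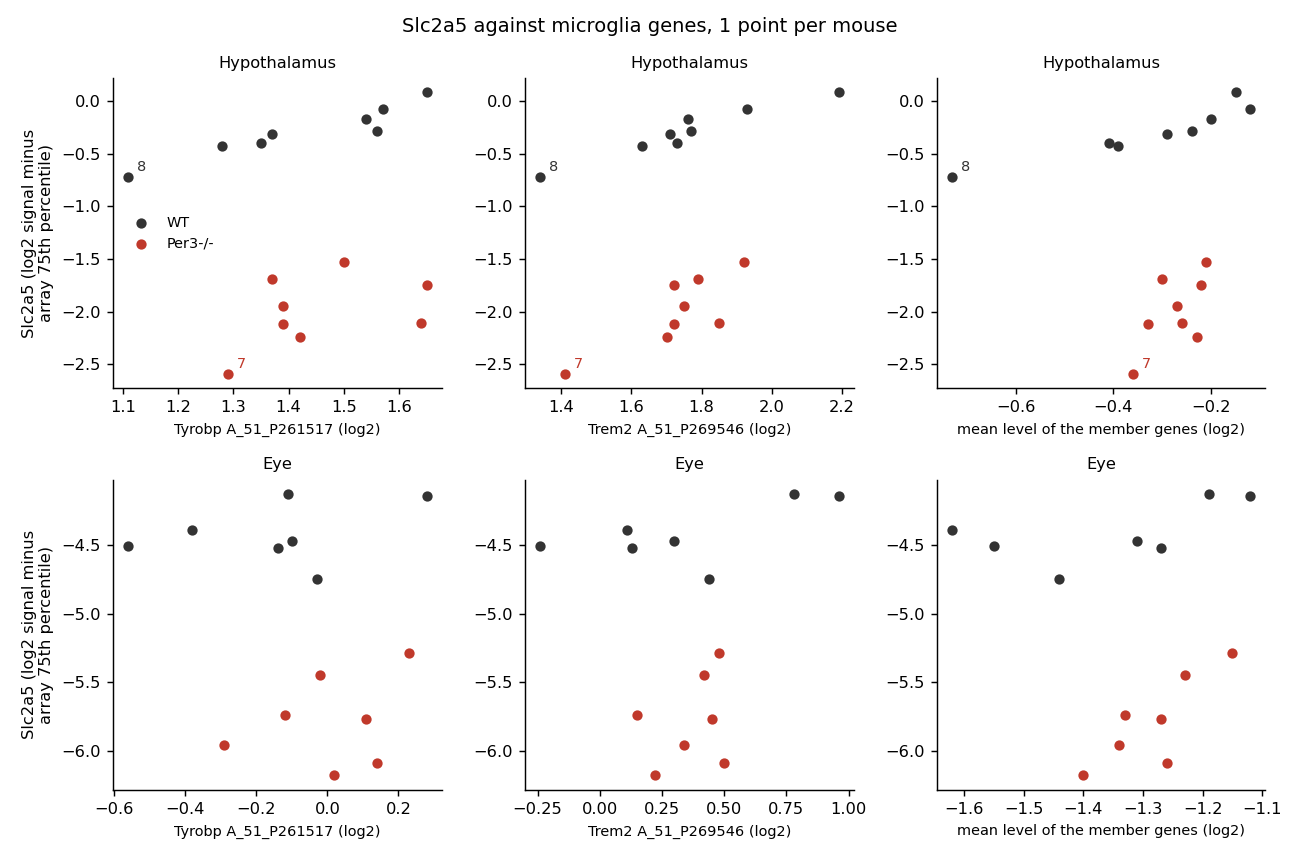
Slc2a5 (y axis) against Tyrobp, the Trem2 probe A_51_P269546 and the mean level of the member genes (x axes), all as log2 signal minus the array's 75th percentile, 1 point per mouse. WT and Per3-/- mice form separate bands at overlapping member levels, WT mouse 8 is the lowest WT point of the hypothalamus, and Per3-/- mouse 7 is the lowest Per3-/- point.

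The member genes moved together between mice to different degrees. As a description over 16 hypothalami, with deviations taken from the genotype mean, the correlation of each gene with the mean of the other 9 was highest for C1qa (0.95), C1qb (0.92) and Cx3cr1 (0.87), was 0.86 for Aif1 and for Csf1r, and was lower for Tyrobp (0.81), Trem2 (0.80), Tmem119 (0.72) and P2ry12 (0.69). It was 0.10 for Itgam. Without WT mouse 8 all 10 values were lower, with 0.85 for C1qa, 0.81 for C1qb, 0.73 for Aif1 and for Tyrobp and 0.67 for Cx3cr1, whereas Csf1r stood at 0.56 and P2ry12 at 0.29. Over 14 eyes the values ran from -0.26 (Itgam) to 0.82 (C1qb). All such values share the scaling of the array.

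The 8 other genes closest to the member mean in the hypothalamus, among 27122 probes well above background on every array, were Cd68 (r = 0.96), a lysosomal protein gene of macrophages, C1qc (0.94), Vav1 (0.94), Cd53 (0.93), Pld4 (0.93), Vsir (0.92), Sting1 (0.92) and Bcl2a1b (0.92). Without WT mouse 8 their r lay between 0.79 (Vav1) and 0.92 (Cd68). Slc2a5 had r = 0.66 and rank 182, and r was 0.61 without that mouse. In the eye the closest of 27862 probes were Mpeg1 (0.93), Ctss (0.90), Fcgr1 (0.87) and Ly86 (0.87), followed by Akap4 (0.86), Cd99 (0.85), Mical1 (0.85) and 5031439G07Rik (0.85). Mpeg1 and Ctss encode a pore-forming protein and a lysosomal protease of macrophages.

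The third comparison was between tissues. The eye and hypothalamus arrays lay on different slides, so tissue and slide cannot be told apart in any value of this comparison. By limma 15 of 16 member probes were called, 13 lower and 2 higher in the eye, beside 83.1% of all probes (35.2% lower and 47.9% higher), and the median member difference was -0.87 (all probes, 0.19). The position of that all-probe median depended on the scaling (-0.07 with quantile normalization and 0.37 with normexp), and the member medians there were -0.94 and -0.72.

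P2ry12 showed the largest difference among the members. Its 16 hypothalamus values ran from -0.91 to -0.15 and its 14 eye values from -4.25 to -3.50, a 12.1-fold lower signal in the eye (log2 difference -3.60 ± 0.07, SE, limma adjusted p = 2.4e-27). The tissues did not overlap. The share of all probes without overlap between tissues was not computed, and 83.1% of all probes were called. The Cx3cr1 probe A_52_P99810 ran from -1.58 to -0.33 in hypothalamus and from -4.13 to -3.05 in eye (-2.91 ± 0.11, 7.5-fold, limma adjusted p = 1.4e-20), again with no overlap. The other Cx3cr1 probe, A_51_P350853, which binds the same transcript closer to its start, differed by -0.31 (interval -0.72 to 0.11, limma adjusted p = 0.16), by -0.91 with quantile normalization and by 0.16 with normexp, so the 2 probes of this gene disagreed.

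Tyrobp (-1.51), the Trem2 probe A_51_P269546 (-1.39), the Csf1r probe A_51_P365885 (-1.10), the Aif1 probe A_51_P400543 (-0.95) and Tmem119 (-0.66) were lower in the eye with no overlap between tissues, again without a share over all probes. The second probes of Trem2 and Aif1 overlapped. A_51_P269549 of Trem2 differed by -0.81, and A_52_P2754 of Aif1 by -0.27, with values from -1.55 to -0.87 in hypothalamus and from -1.63 to -0.95 in eye. The other Csf1r probes, A_52_P602091 (-0.95) and A_52_P570471 (-0.81), overlapped as well. C1qb (-0.94) and C1qa (-0.40) were lower with overlapping ranges, and C1qc differed by -0.05 (limma adjusted p = 0.48). Itgam was higher in the eye by both probes, by 0.74 (A_52_P669155, limma adjusted p = 4.2e-08) and by 0.36 (A_51_P103007, adjusted p = 0.00026), of which the second was -0.07 with quantile normalization. Slc2a5 differed by -3.95 over both genotypes, with no fold given because only 4 of 7 Per3-/- eyes were well above background for it.

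**Figure D5:**
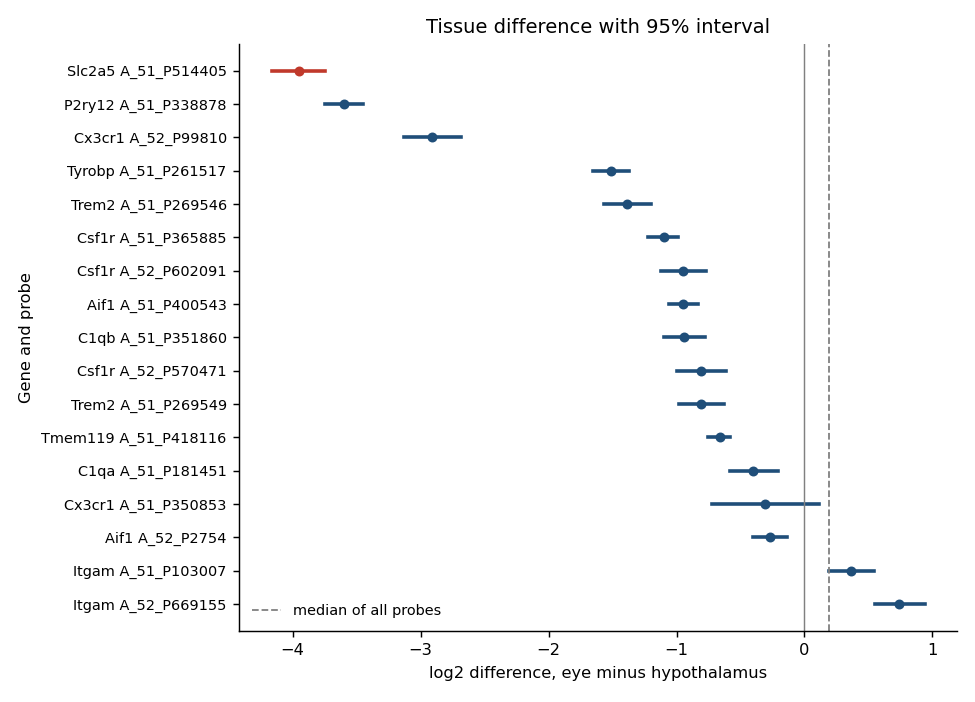
Difference of eye minus hypothalamus on the log2 scale (x axis) with its 95% interval for each member probe and Slc2a5 (y axis, ordered by difference). The dashed line is the median of all probes at 0.19, to the right of all members other than the 2 Itgam probes.

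Among other microglia genes the tissues differed in both directions, with 23 of 45 probes called lower and 19 called higher in the eye by limma (median -0.16), beside 35.2% and 47.9% of all probes. P2ry13, a nucleotide receptor related to P2ry12, was lower in the eye at -2.50, as were Siglech at -2.08 and Selplg at -2.07 (A_51_P131358), while Hpgds was higher by 3.43 and Olfml3 by 2.01 (A_51_P191782). The 4 probes of Cyth4 disagreed, from -0.37 to 4.25 (A_52_P380094). All 13 border macrophage probes were called higher in the eye (median 3.89), among them Mrc1 by 3.07, Cd163 by 3.30 and Folr2 by 5.28, as were 26 of 28 probes of the activation list (median 2.32), 10 of 13 of the monocyte and neutrophil list and 11 of 12 of the lymphocyte list, again beside 47.9% of all probes. The part of these other cells in the eye values of the members that macrophages share was not tested. Among the ligands Cx3cl1 differed by -2.18 (A_51_P196925), Il34 by -0.91 and Csf1 by -0.83, all lower in the eye.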

How the data were processed

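The authors extracted spot intensity with Agilent Feature Extraction (10.7.1.1 per the file headers), and the deposited processed intensity is background-subtracted, linear and not scaled between arrays. The authors also deposited a log2 value table of the same arrays, used as an alternative, with 0 unused columns of samples. Processed signals of 41174 non-control probes (1 value per probe, replicate spots averaged) were taken to log2 minus the array's 75th percentile, leaving out spots flagged as uneven or as outliers (36 to 91 per array, none of a member). Positions are those of the array files (mm9).

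Genotypes were compared within tissue with limma 3.58.1 in R 4.3.3 (lmFit, eBayes, two-sided, Benjamini-Hochberg over all probes, called under 0.05), and tissues and the difference in genotype effect over all 30 arrays with the mouse as random block (correlation 0.059). Standard errors are those of these fits. Samples of both tissues with the same genotype and replicate number in their titles were taken as 1 mouse. The labels do not say that they are the same animal. Relations were computed in Python 3.11.15 (numpy 2.4.6; pandas 2.3.3; scipy 1.17.1). The mean member level averages the genes over those probes that no array of the tissue read near background (16 in hypothalamus, 15 in eye). The number of arrays limits the precision. P-values rest on 1 array per mouse and tissue. The scripts were tested on simulated data.

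Named were all member probes, Slc2a5, Per3, from each list some of the called genes or, where none was, of the 3 genes of lowest p, and in each tissue the 8 genes most alike. Csf1, Il34 and Cx3cl1 were named besides as ligands, after their values were seen. The members and lists were chosen with earlier results of these data known. Gene names of lists came from RefSeq by accession (26918 probes), symbol (5082) or synonym (817), or from the files (8357). Alternatives were quantile normalization, normexp (offset 50), a filter on dim probes, flagged spots kept, slide or replicate as a block, the methods' unpaired test, the deposited table, and leaving out each mouse.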

Additional observations from a re-analysis of the deposited data

Results flagged for a closer look

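Of 68 groups of 7 or 8 values (16 member probes and Slc2a5 in 4 groups), 5 held a mouse farther from its neighbour than Dixon's 95% limit, where chance alone gives about 1 in 20. For the Csf1r probes A_51_P365885 and A_52_P602091, WT mouse 8 of the hypothalamus was lowest at 0.76 (others 1.23 to 1.48) and -1.52 (others -0.81 to -0.31). For the Trem2 probes A_51_P269546 and A_51_P269549, Per3-/- mouse 7 of the hypothalamus was lowest at 1.41 (others 1.70 to 1.92) and -0.97 (others -0.70 to -0.58), and the same mouse had the lowest Slc2a5 at -2.59. For the Cx3cr1 probe A_51_P350853, Per3-/- mouse 6 of the hypothalamus was highest at -4.08 (others -4.56 to -4.35). Probes of 1 gene are not independent, and all 5 spots were well above background.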

How the results depend on the processing

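No member probe was called between genotypes in either tissue under any alternative run, and the median difference lay between 0.00 and 0.08 in the hypothalamus and between 0.02 and 0.19 in the eye, leaving aside the fit with the member level itself as a term (0.01 and -0.02). The 0.19 came from normexp, where the median of all probes in the eye was 0.18. With normexp that median was -0.08 in the hypothalamus and 0.25 for the difference between tissues in genotype effect. Slc2a5 in the hypothalamus stayed called under all alternatives, at -1.77 to -1.56. In the eye it lay at -1.45 to -1.30 when 1 mouse was left out, and it was no longer called with quantile normalization (-1.35, limma adjusted p = 0.061), normexp (-0.17, adjusted p = 0.82) or the replicate block (-1.26, adjusted p = 0.33). With that block the calls over all probes were 5 in place of 17 in the hypothalamus and 1 in place of 8 in the eye. The labels do not say that a number pairs mice, although equal numbers lay on the same slide where they had a partner, and deviations of same-numbered mice correlated above 0.1 for 4 of 8 pairs in the hypothalamus (-0.204 to 0.396) and 5 of 6 in the eye (0.00173 to 0.679), where 9 of 12 mice correlated best with their own number. Over all probes normexp called 10 and 4 probes, and the other settings that kept all mice 13 to 20 and 6 to 9. The count of relations of Slc2a5 with an adjusted p under 0.05 was 10, and 0 to 12 without 1 mouse, with 11 under quantile normalization. Between tissues, Cx3cr1 A_51_P350853 was called under quantile normalization (-0.91) and had the other sign with normexp (0.16), Csf1r A_52_P570471 was not called with normexp (-0.24), and Itgam A_51_P103007 turned to -0.07 under quantile normalization. The sign of small genotype differences that were not called turned with normexp for Cx3cr1 A_51_P350853 (-0.06) and Csf1r A_52_P570471 (-0.08) in the hypothalamus, and for P2ry12 (0.20), Csf1r A_52_P570471 (0.19) and Aif1 A_52_P2754 (0.09) in the eye, the last also with the replicate block (0.07). For the difference between tissues in genotype effect it turned with normexp for Cx3cr1 A_52_P99810 (0.23), P2ry12 (0.10), Csf1r A_51_P365885 (-0.02), Csf1r A_52_P570471 (0.27), Aif1 A_52_P2754 (0.06) and Itgam A_52_P669155 (0.17). Leaving out 1 mouse turned the sign of 18 of 32 member differences, none of them called. In the hypothalamus these ranged from -0.08 to 0.10 for Cx3cr1 A_52_P99810, -0.01 to 0.05 for Tmem119, -0.02 to 0.08 for Csf1r A_52_P570471, -0.01 to 0.17 for Csf1r A_52_P602091, 0.00 to 0.10 for Aif1 A_52_P2754, -0.05 to 0.03 for Itgam A_51_P103007, -0.08 to 0.04 for Trem2 A_51_P269546, -0.07 to 0.02 for Trem2 A_51_P269549, -0.02 to 0.06 for Tyrobp, -0.07 to 0.10 for C1qa and -0.04 to 0.08 for C1qb. In the eye they ranged from 0.00 to 0.43 for Cx3cr1 A_51_P350853, -0.06 to 0.13 for Cx3cr1 A_52_P99810, -0.03 to 0.07 for Aif1 A_51_P400543, -0.06 to 0.06 for Aif1 A_52_P2754, -0.06 to 0.13 for Itgam A_52_P669155, -0.09 to 0.12 for Trem2 A_51_P269546 and 0.00 to 0.18 for Trem2 A_51_P269549. The causes of these changes were not tested. Signal over background limits the dim probes of Slc2a5 and Cx3cr1 in the eye.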
